A study of Mus musculus with 10 samples.

Results

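Promoter regions, in the sense used here, are the CUT&Tag regions that the authors annotated as lying within 1 kb of a transcription start site (TSS). They numbered 14090 of 69418 regions (20.3%) and were selected from these by that annotation alone. Each of the 69418 regions had a peak called by the authors in at least 1 library, so reads did decide which regions exist. CUT&Tag was done on nuclei of mouse brain neural stem and progenitor cells (NSPCs), labelled Mina53-KO (2 libraries) or wild type (WT, 2 libraries). RNA-seq of NSPCs of the same genotypes covered 3 Mina53-KO and 3 WT libraries. Mina53 is encoded by Riox2. Beyond these genotypes, none of the groups is labelled with a treatment, an age, a strain or a brain region. The sources used here name neither the antibody nor a spike-in, nor the way the KO was made, and they do not say that libraries of a genotype came from separate animals, so each p-value reflects the spread among the libraries at hand.

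Riox2 protein is a JmjC-domain oxygenase of the nucleus, and the series title concerns its activity on histone H4 that is asymmetrically dimethylated at arginine 3. That mark is laid down mainly by Prmt1 and is known as a mark of active chromatin. In CUT&Tag, a transposase tethered to an antibody on its chromatin target inserts sequencing adapters nearby, so a read count reflects both the target and how accessible the DNA is. The start of an active gene usually carries an open stretch flanked by modified nucleosomes, and many start sites in mammals lie in stretches rich in CpG. CUT&Tag on a bulk of cells cannot tell less signal per cell from fewer cells with the signal.

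The labelled cell type was checked on RNA. All 10 neural stem and radial glia markers reached at least 1 TPM, a length-corrected RNA level, with a summed level of 8038 to 8822 TPM in KO and 6908 to 7192 TPM in WT libraries. Summed levels of 5 microglia, 3 endothelial and 3 erythroid markers did not exceed 0.469, 0.292 and 0.177 TPM in any library. The 5 oligodendrocyte lineage markers summed to 2118 to 3284 TPM in KO and 1999 to 3542 TPM in WT libraries, the 5 neuron markers to 247 to 347 TPM and 200 to 265 TPM, and the 4 astrocyte markers to 809 to 939 TPM and 884 to 1173 TPM. The part of this cellular makeup in the results below was not tested.

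The DNA just before the start site is shown for 4 genes on whose promoter regions the later sections turn. Riox2 is the targeted gene, Nes encodes the stem cell filament nestin, Nudcd2 encodes an HSP90 co-chaperone, and Sfxn5 encodes a mitochondrial sideroflexin. The sequences are the 250 bases before the RefSeq start, 5′ to 3′ on the gene's strand, from a table on GRCm38.p6. The regions themselves are on GRCm39, so positions of the 2 builds are not compared. Capitals mark matches, on either strand, to the TATA box TATAAA, the CCAAT box, the GC box GGGCGG, the hypoxia factor site ACGTG and the NRF1 core GCATGCGC. The search also covered the ETS site CCGGAAGT, the CRE TGACGTCA with its core TGACG, the E-box CACGTG and the YY1 core AAGATGGCG, which had no match in these 4 windows. The core lies within the CRE, and ACGTG within the E-box.
Riox2 (chr16:59471525-59471774, plus strand): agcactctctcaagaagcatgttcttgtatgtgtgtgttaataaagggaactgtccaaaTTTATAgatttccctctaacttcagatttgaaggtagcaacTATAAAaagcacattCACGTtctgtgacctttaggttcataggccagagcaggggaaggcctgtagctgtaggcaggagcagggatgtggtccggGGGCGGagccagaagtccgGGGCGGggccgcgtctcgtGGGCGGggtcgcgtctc
Nes (chr3:87970843-87971092, plus strand): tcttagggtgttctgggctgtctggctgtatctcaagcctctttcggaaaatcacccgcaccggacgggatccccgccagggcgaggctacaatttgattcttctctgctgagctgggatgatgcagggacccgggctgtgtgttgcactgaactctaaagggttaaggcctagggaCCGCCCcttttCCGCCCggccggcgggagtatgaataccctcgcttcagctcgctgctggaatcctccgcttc
Nudcd2 (chr11:40733411-40733660, plus strand): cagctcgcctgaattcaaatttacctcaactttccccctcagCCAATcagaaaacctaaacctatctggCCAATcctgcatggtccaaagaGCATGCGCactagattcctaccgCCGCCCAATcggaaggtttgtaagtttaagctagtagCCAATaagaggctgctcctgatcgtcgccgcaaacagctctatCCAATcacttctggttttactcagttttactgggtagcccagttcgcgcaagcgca
Sfxn5 (chr6:85333423-85333672, minus strand): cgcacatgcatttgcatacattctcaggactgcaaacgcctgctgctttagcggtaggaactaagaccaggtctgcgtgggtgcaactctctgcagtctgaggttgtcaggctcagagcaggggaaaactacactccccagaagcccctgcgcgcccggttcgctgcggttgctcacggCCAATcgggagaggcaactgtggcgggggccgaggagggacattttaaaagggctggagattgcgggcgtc

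The Riox2 window held 3 GC boxes, 2 matches to TATAAA and 1 to ACGTG. The Nes window held 2 GC boxes, and the Sfxn5 window 1 CCAAT. The Nudcd2 window held 5 CCAAT matches, 1 NRF1 core and 1 GC box, which overlaps a CCAAT. Of all 32851 RefSeq windows of this length, 12.4% hold TATAAA, 33.9% CCAAT, 32.7% a GC box, 16.6% ACGTG and 2.26% the NRF1 core. GC content was 52.4% in the Riox2, 58.8% in the Nes, 49.2% in the Nudcd2 and 59.2% in the Sfxn5 window, with 11, 15, 11 and 15 CpG in that order. The median over all windows is 52.4% GC and 6 CpG. A match is a description of the letters and not evidence of a bound factor.

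Promoter regions were assigned to 11589 genes, of which 11583 are in the RNA table. A single region was assigned to 9564 genes, 2 regions to 1641 genes and 3 or more to 384 genes. The highest number, 8, was reached by Pde4d (a cAMP phosphodiesterase), Vps8 (endosomal trafficking) and Gramd1b (cholesterol transfer). The region overlapped the TSS in 7406 cases (52.6%), lay wholly upstream in 2960 and wholly downstream in 3724. Promoter regions were 200 to 5883 bp wide, with a median of 330 bp against 277 bp for the other regions. A peak had been called by the authors in all 4 libraries at 2773 promoter regions (19.7%) and in 1 library at 6691 (47.5%). For the other regions these shares were 7.58% and 67.6%. Of the 6691 promoter regions, 2709 and 1683 had their only call in a KO library and 1043 and 1256 in a WT library. The 445 regions in the outermost 100 bp inside the limit had a median level of 38.5 CPM (scaled read counts) per kb of region, against 38.9 for the 419 regions in the first 100 bp outside it.

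Reads in regions numbered 4038765 and 3369232 in the KO and 3125267 and 2913959 in the WT libraries, of which 1089219, 919024, 868876 and 825154 fell in promoter regions. The median promoter region held 54 and 45 reads in KO and 44 and 42 reads in WT libraries. KO libraries also had more called peaks at promoter regions, 9008 and 7253 against 5997 and 6729 in WT libraries, and the excess was larger over all regions, with 40699 and 30806 called peaks in KO against 20867 and 22821 in WT libraries. This depth makes single regions imprecise, and single regions are described by counts below. CPM are scaled by TMM to the reads in regions, so a gain or loss shared by every region cannot be seen in them.

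A few regions took up much of the promoter reads. The 3 regions on the mitochondrial genome, assigned to mt-Th, mt-Tl1 and mt-Rnr1, together held 3.60% and 3.67% of the reads in regions in KO and 3.12% and 3.05% in WT libraries. One further region on chromosome 17 (chr17:40153857-40159739, assigned to ENSMUSG00000118642, which has no symbol in the files) held 1.30% and 1.41% in KO and 1.29% and 1.21% in WT libraries. With 6 regions on unplaced scaffolds, these 10 regions are left out of some of the shares given below, as stated there. Among other promoter regions of genes with a name, the highest mean levels were at Fau-ps2 (261 CPM) and Tap2 (199 CPM). Fau-ps2 is a pseudogene of a ribosomal protein gene, and Tap2 a peptide transporter of antigen presentation. Tatdn3, Mir6236, Mpnd, Sfi1, Plcb4 and Idua followed with 160 to 90.4 CPM. None of these 8 regions was called between genotypes, where only 0.0071% of tested promoter regions were called higher and 0.0071% lower in KO.

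More genes had a promoter region the higher their RNA level in WT cells. Of genes under 0.1 TPM, 2890 of 37699 (7.67%) had one. The share was 20.2% at 0.1 to 1 TPM, 41.7% at 1 to 10 TPM, 60.8% at 10 to 100 TPM and 63.9% (1179 of 1846 genes) at 100 TPM or more. Regions of expressed genes also sat closer to the start and were more often called in every library. The strongest region of a gene overlapped the TSS for 24.4% of genes in the lowest and 79.2% in the highest class, and had a peak call in all 4 libraries for 9.55% and 34.3%.

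The level of the strongest promoter region differed less between RNA classes than the share did, and the spread between classes was narrower in the KO than in the WT libraries. Below 0.1 TPM its median was 35.9 and 36.1 CPM per kb in KO and 36.0 and 35.4 in WT libraries. At 1 to 10 TPM the medians were 40.1 and 40.2 in KO and 43.7 and 45.1 in WT libraries. At 100 TPM or more they were 41.0 and 41.9 in KO and 47.9 and 49.3 in WT libraries. Both KO libraries thus lay below both WT libraries in the classes from 0.1 TPM up, and the gap was widest in the highest class. Spearman's rho between CPM per kb and TPM of the same genotype over 11583 genes was 0.128 and 0.140 in KO and 0.236 and 0.259 in WT libraries, as a description of genes that share libraries, depth and region widths. With reads thinned to the smallest library rho was 0.123 and 0.140 in KO and 0.236 and 0.259 in WT libraries. In the 2682 genes whose region had a peak call in all 4 libraries it was 0.00055 and 0.011 in KO and 0.081 and 0.094 in WT libraries.

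**Figure D1:**
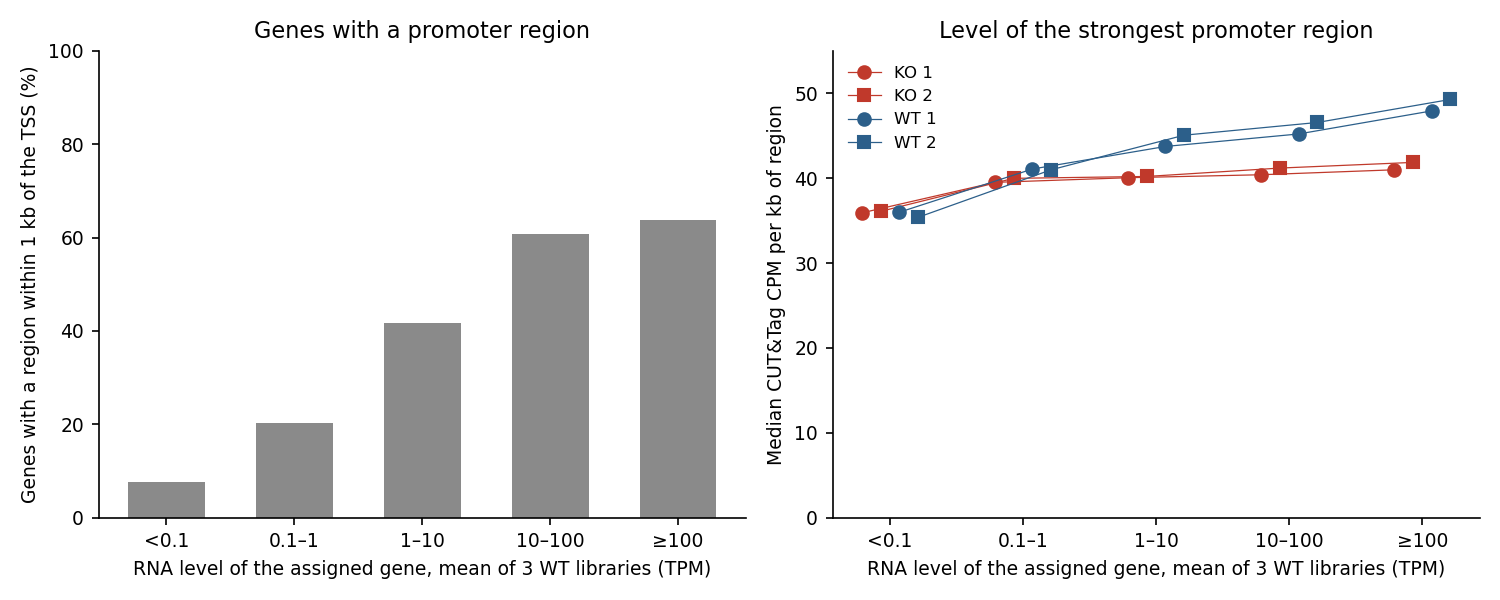
Left, share of genes with a promoter region (bars, %) by WT RNA level in TPM. Right, median CUT&Tag CPM per kb of each gene's strongest promoter region in each library, with KO libraries in red left of WT libraries in blue. The share goes up to 63.9%, and the libraries part at 0.1 TPM and above, where both KO medians lie below both WT medians.

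Genes at both ends of the RNA range show how loosely the 2 measures were tied. Eef1a1, the translation elongation factor with the highest RNA level (11187 TPM in WT), had a region over its TSS with 155 and 159 reads in KO and 147 and 157 in WT libraries, or 59.9 CPM per kb. Fabp7, a fatty acid binding protein of radial glia at 4320 TPM in WT, had only 27 and 33 reads in KO and 27 and 32 in WT libraries (30.3 CPM per kb), fewer per kb than the median gene without RNA. Ckb (creatine kinase, 9306 TPM), Serpine2 (a secreted protease inhibitor, 4052 TPM) and Tuba1a (a tubulin, 3511 TPM) had 58.1, 32.4 and 58.0 CPM per kb. Conversely, 864 named genes under 0.1 TPM in both genotypes had a promoter region. The strongest were at Spink8 (a secreted protease inhibitor gene; 74.1 CPM), Rn5s-ps1 (a 5S rRNA pseudogene; 72.3 CPM), Mir101c (56.5 CPM), Slc2a4rg-ps (53.6 CPM) and Arhgap45 (52.3 CPM). All 5 lie beside and not over the TSS they were assigned to. MicroRNA transcripts are too short and often lack the poly(A) tail that the RNA-seq selected, so the RNA value of Mir101c says little.

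Gene groups followed the same pattern. Of genes in the list of glycolysis and hypoxia 18 of 22 had a promoter region, of cholesterol synthesis 16 of 20, of astrocyte genes 12 of 15, of immediate early genes 12 of 18 and of housekeeping genes 13 of 20. Neural stem and radial glia genes had 14 of 24 and cell cycle genes 17 of 28, all 17 of the latter over the TSS. Most lists of genes with little or no RNA here had few: 22 of 1156 olfactory receptors, 6 of 39 Hox genes, 3 of 14 microglia genes, and 0 of 9 erythroid and 0 of 15 pluripotency and germline genes. RNA level and coverage parted in some lists. Of intermediate progenitor and neuroblast genes 9 of 15 had a region although only 5 of the 15 reached 1 TPM, and 5 of the 9 belong to genes below 1 TPM. Only 1 of 46 clustered protocadherins at 1 TPM or more had a region, Pcdhac1, and 47 of 96 cytosolic ribosomal protein genes had one although 84 of the 96 reached 1 TPM. Of genes for telencephalic patterning factors 7 of 15 reached 1 TPM and none of these had a promoter region, while the silent Emx1 and Lhx8 did. Emx1 had 182 and 142 reads in KO and 165 and 136 in WT libraries. Scaled for depth, that is 44.4 and 42.1 CPM in KO and 53.4 and 47.1 CPM in WT libraries.

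Among members, Cdk4, a kinase of the G1 phase, had the highest level of the listed genes, 101 CPM per kb, with 212 and 161 reads in KO and 168 and 178 in WT libraries. Egr1, an early response transcription factor, had 258 and 235 reads in KO and 204 and 173 in WT libraries. Carm1, which like Prmt1 makes asymmetric dimethylarginine, had 203 and 171 reads in KO and 146 and 155 in WT libraries, and Prmt2 had 122 and 83 against 94 and 81. Vim, a filament gene of neural stem cells, had 98 and 128 reads in KO and 121 and 76 in WT libraries. For Cdk4, Carm1, Egr1 and Vim the log2 fold changes of CPM, KO over WT, were -0.22, -0.0088, 0.073 and -0.099, and none was called.

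The first comparison between genotypes asked which promoter regions differed. At an adjusted p under 0.05 (edgeR quasi-likelihood test over 69209 regions, Benjamini-Hochberg), 1 of 14081 tested promoter regions was called higher and 1 lower in KO. Over all regions 0.00289% were called higher and 0.00433% lower in KO. DESeq2 called 3 higher and 1 lower. At an unadjusted p under 0.05, 147 promoter regions (1.04%) were higher and 1007 (7.15%) lower in KO, against 1.7% and 3.65% of all regions. In the authors' deposited table, 219 promoter regions (1.55%) were lower in KO at p under 0.05 and 134 (0.951%) higher, against 0.88% and 1.46% of all regions, and every q-value was 1.

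The region called higher was assigned to Fnta, which encodes the alpha subunit shared by enzymes that attach farnesyl and related lipids to proteins. It lies at chr8:26493247-26493972, 632 bp downstream of the start of an annotated transcript that spans 26490587 to 26494604 on the minus strand. It had 179 and 129 reads in KO and 51 and 44 reads in WT libraries. That is 40.9 ± 3.84 CPM in KO and 15.9 ± 0.898 CPM in WT (SD, n = 2 each). Its log2 fold change was 1.37 (SE 0.23) with an adjusted p = 4.49e-05 by edgeR. Without KO replicate 1 its adjusted p was 0.225. The region over another Fnta start, at 26505618-26505817, had 47 and 29 reads in KO and 20 and 15 in WT libraries (log2 fold change 0.78, SE 0.47). Its neighbour at 26505134-26505394 had 35 and 23 against 33 and 37 (-0.60, SE 0.41). Each had an adjusted p = 0.933 by edgeR, so no difference was detected at either. Fnta RNA was at 100 TPM in KO and 107 TPM in WT cells (log2 fold change -0.11, adjusted p = 0.815).

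The region called lower was assigned to Gm7807, a predicted gene with 1.79 TPM in KO and 1.69 TPM in WT cells. It lies upstream of that gene at chr8:20060834-20062709 and had 562 and 462 reads in KO and 704 and 593 in WT libraries. Its level was 137 CPM in both KO libraries and 228 and 205 CPM in WT libraries, with -0.66 as log2 fold change (SE 0.13; adjusted p = 0.00226 by edgeR). The adjusted p was 0.455, 0.518 and 0.0971 without KO replicate 1, KO replicate 2 and WT replicate 1.

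The regions next in order of p did not pass the threshold. On the lower side they included 3 regions over the TSS of genes with abundant RNA. The region of Aldoa, the aldolase of glycolysis, had 122 and 94 reads in KO and 162 and 149 in WT libraries (log2 fold change -0.85, SE 0.19, adjusted p = 0.0758 by edgeR). That of Sfxn5 had 122 and 91 reads in KO and 167 and 140 in WT libraries (-0.85, SE 0.19, adjusted p = 0.0758 by edgeR). That of Nudcd2 had 94 and 95 reads in KO and 132 and 143 in WT libraries (-0.86, SE 0.20, adjusted p = 0.109 by edgeR). In each of the 3, both KO libraries lay below both WT libraries, also in CPM. These regions were picked for small p in the same libraries, so this order adds no support. It holds at 27.1% of tested promoter regions. The region assigned to Tk1, the thymidine kinase of S phase, had 59 and 41 reads against 77 and 88, and lies 944 bp from the TSS. The other 3 on this side were at Gm10366, Gm12762 and 2900072N19Rik, which have 0.143 TPM or less in WT.

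On the higher side, the region over the Nes start (chr3:87878216-87878558) had 132 and 88 reads in KO and 49 and 45 in WT libraries, or 29.1 ± 4.32 CPM in KO and 15.7 ± 0.196 CPM in WT (SD, n = 2 each; log2 fold change 0.90, SE 0.25, adjusted p = 0.348 by edgeR). Nes RNA was at 429, 388 and 312 TPM in KO and 315, 198 and 273 TPM in WT libraries, and the groups overlap. The region at M1ap, a gene of meiosis at 0 TPM in KO and 0.017 TPM in WT, had 101 and 70 reads in KO and 34 and 24 in WT libraries (adjusted p = 0.164 by edgeR). Zfp804b, at 0 TPM in both genotypes, had 129 and 105 reads against 64 and 53. The rest were 3 predicted genes, Gm55968, Gm21026 and Gm5830, and the mitochondrial mt-Tl1 region (59493 and 50871 reads in KO, 39390 and 36022 in WT; log2 fold change 0.23). None of the genes of these 16 regions was called in RNA, and some had too little RNA to be tested. Of all genes tested in RNA 1.77% were called higher and 1.66% lower.

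**Figure D2:**
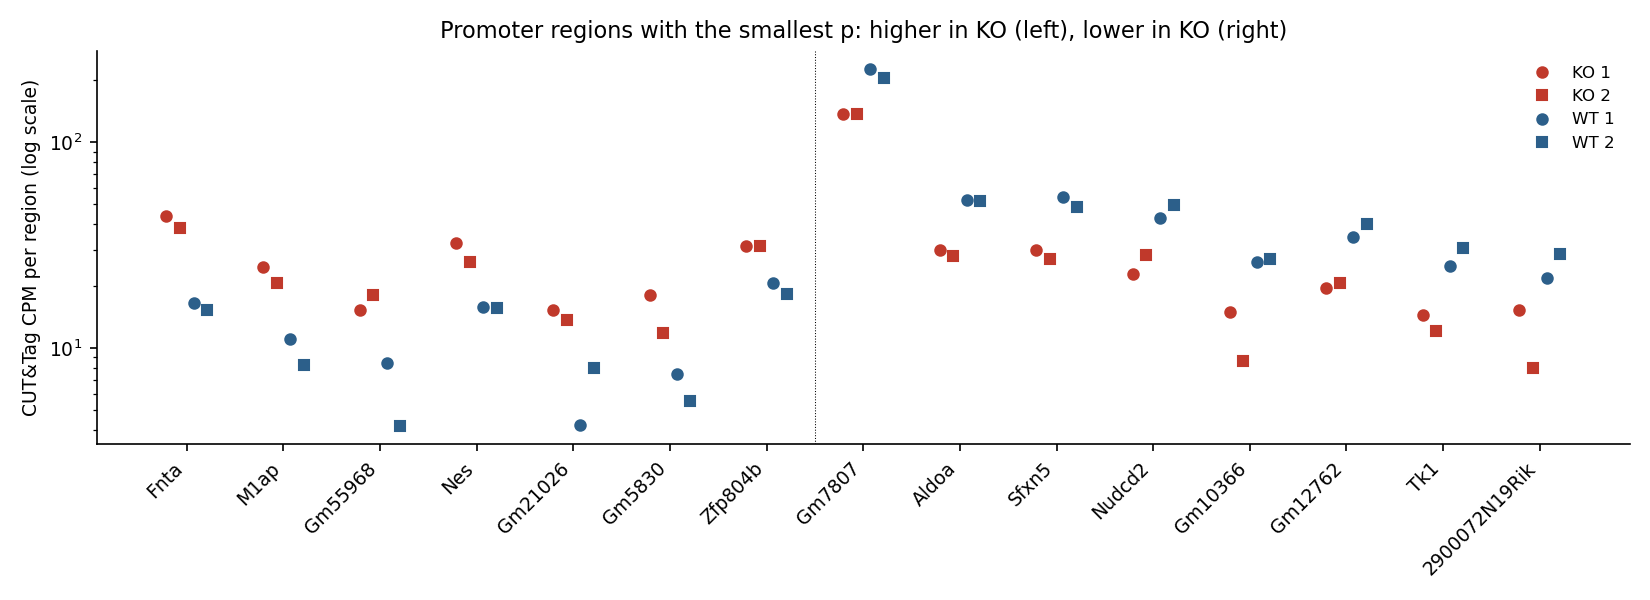
CPM per promoter region in each library (log axis), KO in red left of WT in blue, for the regions of smallest p on either side, mt-Tl1 left out for scale. Only Fnta and Gm7807 passed the adjusted p. The regions were picked for small p in these same libraries, so the separation of KO from WT libraries seen here adds no support.

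The region over the Riox2 start (chr16:59292238-59292437), whose promoter letters are given above, was weak. It had 16 and 11 reads in KO and 22 and 26 in WT libraries (log2 fold change -1.15, SE 0.63, adjusted p = 0.933 by edgeR), so a difference was not detectable at this depth. Riox2 RNA was at 3.44, 3.90 and 3.88 TPM in KO and 21.1, 16.6 and 19.9 TPM in WT libraries (log2 fold change -2.37, SE 0.15, adjusted p = 0.000324 by edgeR). The 3 KO values were all below the 3 WT values.

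The second comparison asked whether promoter regions as a class shifted. Their median log2 fold change, KO over WT, was -0.106, against 0.036 for the other regions and 0.0065 for all. Both KO libraries lay below both WT libraries at 3819 promoter regions (27.1%) and above them at 1590 (11.3%), against 17.8% and 16.9% of all regions. The median promoter region had 13.2 and 13.3 CPM in KO and 14.2 and 14.5 CPM in WT libraries. Scaled by library totals, the medians were -0.080 for promoter regions and 0.033 for all. Scaled by all reads of each library, they were -0.030 and 0.083, so the position of 0 depends on the scaling. A scaling moves all regions of a library alike. The gap between promoter regions and all regions therefore stays the same by construction, which adds no support for it. In the authors' deposited table the medians are -0.036 for promoter regions and 0.074 for all. The lower side was common to all 20 chromosomes tested (1 to 19 and X), with medians of -0.148 on chromosome 18 to -0.069 on chromosome 13.

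The shift was concentrated at the TSS and at expressed genes. Regions over the TSS had a median of -0.155, regions wholly upstream -0.047 and wholly downstream -0.019. Regions at 1 to 2 kb and 2 to 3 kb had 0.016 and 0.0017. Promoter regions of genes under 0.1 TPM had 0.030, those at 0.1 to 1 TPM -0.033, at 1 to 10 TPM -0.123, at 10 to 100 TPM -0.146 and at 100 TPM or more -0.202. Intronic regions of the same classes ran from 0.054 to -0.038, a narrower span. In promoter regions over the TSS alone the span was -0.030 to -0.217.

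The level of a region and its peak calls moved with its fold change. Regions were ordered by mean CPM and cut into 5 classes of equal number. In the lowest class promoter regions had a median of 0.172 and other regions 0.244. In the highest class they had -0.161 and -0.047. By the number of libraries with a peak call, promoter regions had -0.018, -0.088, -0.148 and -0.200 for 1 to 4 calls, and other regions 0.095, -0.0078, -0.034 and -0.088. Promoter regions were lower than other regions in all 5 classes and at each number of calls. Among regions with 4 calls the order by RNA level was kept, with -0.090 under 0.1 TPM and -0.249 at 100 TPM or more. The part of depth and peak calling in the gap between genotypes was not tested beyond these values.

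**Figure D3:**
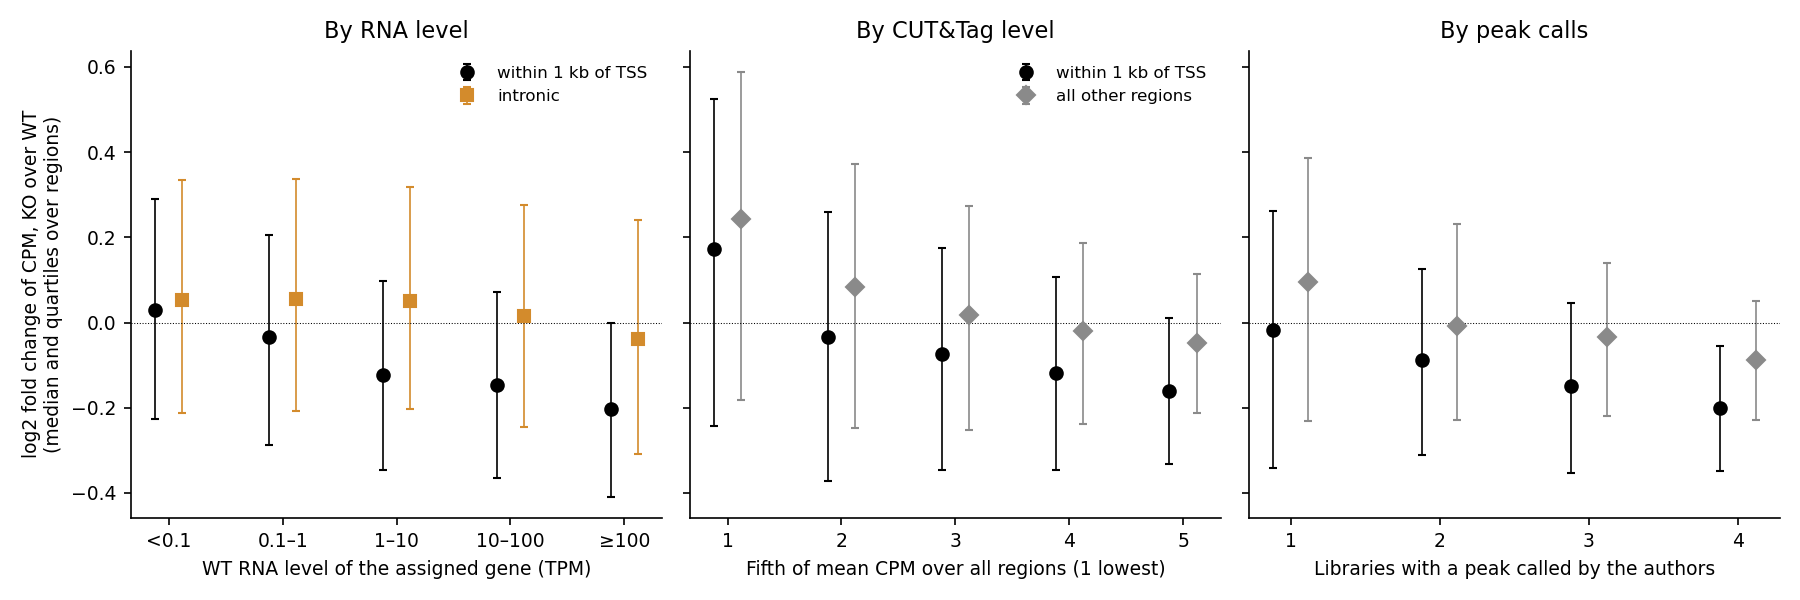
Median (points) and quartiles (bars) of the log2 fold change of CPM, KO over WT, over regions, by WT RNA level of the assigned gene (left), by 5 classes of CUT&Tag level (middle) and by number of libraries with a peak call (right). Promoter regions (black) lie below intronic regions (orange) and below all other regions (grey) in every class, and go down to -0.202 at 100 TPM or more.

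Expressed as a share of the reads in regions, promoter regions took 26.97% and 27.28% in KO and 27.80% and 28.32% in WT libraries, a difference of -0.936 percentage points. Both KO libraries lay below both WT libraries, and the exact permutation test gave p = 0.333, the smallest that 2 against 2 libraries allow. Without the 10 mitochondrial, scaffold and chromosome 17 regions named above, the shares were 23.4% and 23.6% in KO and 24.8% and 25.4% in WT libraries. Regions over the TSS took 13.9% and 14.1% in KO and 15.0% and 15.7% in WT libraries, and regions beside it 9.54% and 9.54% against 9.71% and 9.69%. Promoter regions of genes at 10 to 100 TPM took 10.2% and 10.4% against 11.05% and 11.4%, and those of genes under 0.1 TPM 4.45% and 4.47% against 4.37% and 4.38%. Intronic regions took 33.7% and 33.5% in KO and 32.7% and 32.7% in WT libraries. As a share of all reads of a library, promoter regions took 1.63% and 1.66% in KO and 1.56% and 1.73% in WT libraries, with means 0.00028 percentage points apart, so on this denominator the libraries of the genotypes overlap.

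**Figure D4:**
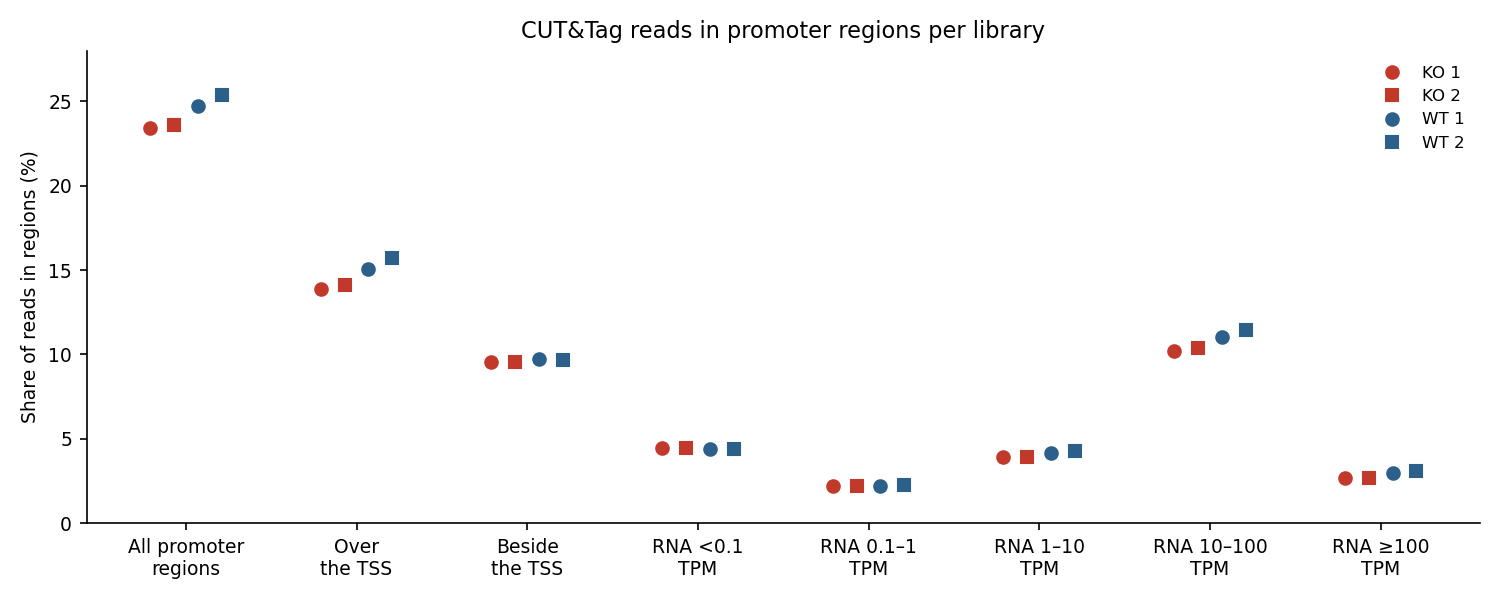
Share of the reads in regions that fell in promoter regions in each library, KO in red left of WT in blue, in all, by position and by WT RNA level, without 10 mitochondrial, scaffold and chromosome 17 regions. KO shares are below WT shares in each column but that of genes under 0.1 TPM, where they are above.

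No member of any of the 29 gene lists had a called promoter region, where only 1 promoter region in all was called in each direction. For all 11575 genes tested by their strongest region, the median log2 fold change was -0.111, with both KO libraries below both WT libraries at 27.9% and above at 11.05%. The glycolysis and hypoxia list had a median of -0.32, with 10 of 18 regions below and 1 above. The region above belongs to a second gene ID named Aldoa, at 2.07 TPM in WT, which had 49 and 44 reads in KO and 29 and 26 in WT libraries. Eno1, the enolase of glycolysis, had 133 and 120 reads against 129 and 135 (log2 fold change -0.38). Of 47 cytosolic ribosomal protein genes 18 were below and 1 above (median -0.24), of 12 immediate early genes 7 and 0 (-0.29), of 17 cell cycle genes 7 and 0 (-0.22), and of 11 imprinted genes 6 and 1 (-0.46). Median levels over the ribosomal protein genes were 13.4 and 13.3 CPM in KO and 16.5 and 16.96 CPM in WT libraries. In the ribosomal protein and cell cycle lists the median gene with a region was above 100 TPM in WT. Promoter regions of all genes at 100 TPM or more had a median of -0.202. The medians of the ribosomal protein and cell cycle lists lie near that value. Other lists whose median gene with a region was above 100 TPM spread more widely. Glycolysis and hypoxia had -0.32 and neural stem and radial glia -0.25. Cholesterol synthesis had -0.15, housekeeping -0.10 and astrocyte genes -0.074. In the immediate early and imprinted lists the median gene with a region was at 15.9 and 18.4 TPM. Both lay below the median of -0.146 for promoter regions at 10 to 100 TPM. Whether any list differs from other genes of like RNA level was not tested.

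Lists whose median listed gene had less than 1 TPM in WT lay on both sides of 0. Their fold changes come only from members with a region, which in some lists had more RNA. The median WT level of these members was 5.46 TPM for midbrain, hindbrain and caudal patterning factors. It was 5.52 TPM for fibroblast and meningeal genes. The 9 intermediate progenitor and neuroblast genes had a median of -0.31 with 5 below and 0 above, and 5 midbrain, hindbrain and caudal patterning factors -0.46 with 3 below and 0 above. The 4 fibroblast and meningeal genes had a median of 0.30 with 1 below and 2 above. Olfactory receptor genes had a median of 0.30 with 1 of 22 below and 6 above, Hox genes 0.038 with 1 of 6 below and 0 above, and clustered and related histone genes -0.020 with 4 of 18 below and 2 above. Arginine methylation genes had -0.12 with 3 of 8 below and 0 above, near the median of all genes, as had 15 genes of lysine methylation and polycomb (-0.12; 5 and 3), 13 p53 targets (-0.11; 3 and 0) and 206 zinc finger genes (-0.14; 52 and 13). Neural stem and radial glia genes had -0.25 with 4 of 14 below and 1 above. Astrocyte genes had -0.074 with 4 of 12 below and 1 above. These medians are descriptions of lists of unequal size and RNA level.

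**Figure D5:**
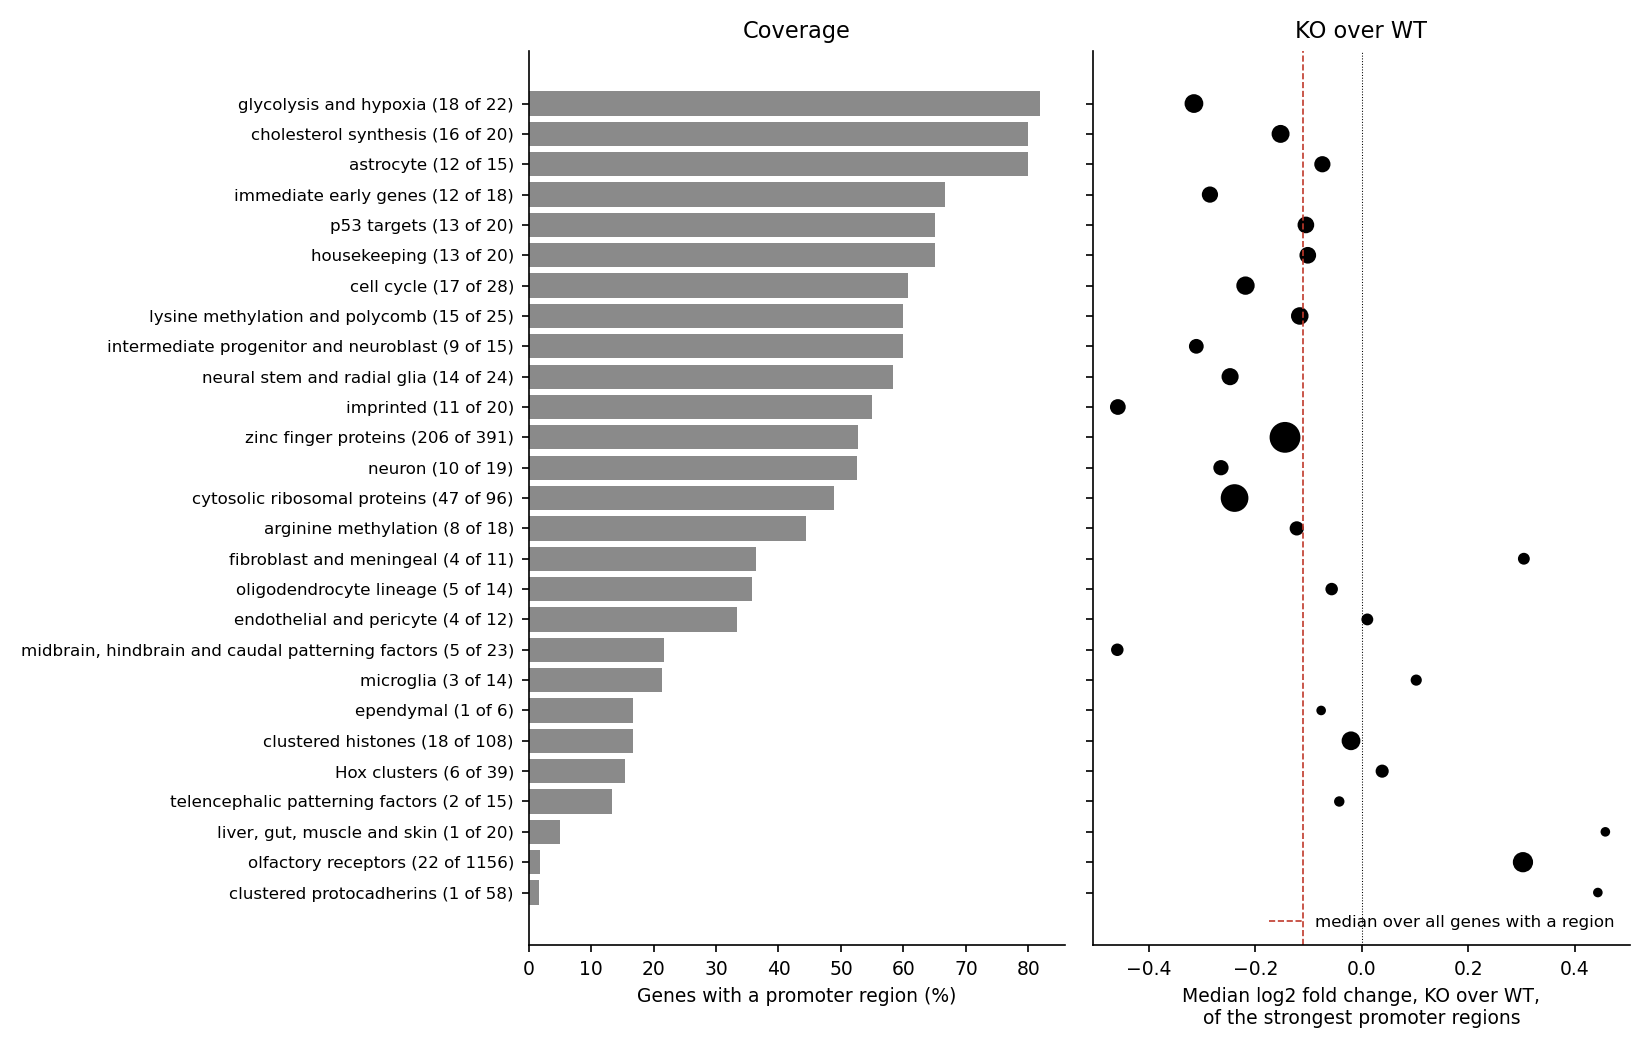
Left, share of the genes of each list with a promoter region (%). Right, median log2 fold change, KO over WT, of the strongest promoter regions (dot area grows with their number), with the median over all genes, -0.111, as a dashed line. Glycolysis and hypoxia has the highest share and lies left of the line, while olfactory receptors have 22 of 1156 and lie right of 0.

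The third comparison set promoter regions against RNA differences between the genotypes. Of 7977 genes with a promoter region that were tested in RNA, 124 were called higher and 130 lower in KO (1.55% and 1.63%), against 1.77% and 1.66% of all tested genes. The strongest promoter region had a median log2 fold change of -0.034 for genes with higher RNA and -0.127 for genes with lower RNA, against -0.158 for the 7722 genes not called. For genes with an RNA log2 fold change of at least 1 in size the medians were 0.0071 (64 genes) and -0.123 (64 genes). Both called groups thus lay above the genes not called, with a gap of 0.093 between them. The groups also differed in peak calls and position. A peak call in all 4 libraries was present for 16.9% of genes with higher RNA, 19.2% with lower RNA and 29.2% not called. The region overlapped the TSS for 54.8%, 67.7% and 70.7% in that order. The part of these differences in the order of the medians was not tested. Per library, the median log2(CPM + 1) relative to the mean of the 4 libraries was higher for genes with higher RNA than for genes with lower RNA by 0.062 and 0.0075 in KO and by 0.0026 and -0.023 in WT libraries. Both KO values exceed both WT values (exact permutation test, p = 0.333, the smallest possible here). No promoter region of a gene called in RNA was itself called. Of all tested promoter regions only 0.0071% were called higher and 0.0071% lower, so nothing is read from this. The gap was 0.048 to 0.180 with any 1 library left out. With the mitochondrial share of the RNA libraries (over or under 3%) as a covariate, 462 genes were called higher and 451 lower, and the gap was 0.031. Calls higher and lower numbered 37 and 35 without KO replicate 1 of RNA-seq, 43 and 36 without KO replicate 2, 63 and 81 without WT replicate 2, and 34 and 31 without WT replicate 3.

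Single genes with large RNA differences had modest differences in promoter reads. Cbln1, a secreted synapse organiser, had RNA of 5.46, 4.87 and 4.13 TPM in KO and 0.827, 0.123 and 0.320 TPM in WT libraries (log2 fold change 3.52, SE 0.47, adjusted p = 0.0073 by edgeR). Its promoter region had 38 and 33 reads in KO against 16 and 18 in WT libraries. That is 9.27 and 9.78 CPM against 5.17 and 6.23 CPM, and it was not called (log2 fold change 0.74, SE 0.49, adjusted p = 0.933 by edgeR). The adjusted RNA p of Cbln1 was 0.0699 by edgeR without WT replicate 3. Hoxa7, a posterior patterning gene, had RNA of 7.65 TPM in KO and 0.856 TPM in WT (mean of 3), and 130 and 94 promoter reads in KO against 111 and 77 in WT libraries, so the promoter groups overlap. Cdk6, the G1 kinase, had RNA of 46.8 TPM in KO and 9.34 TPM in WT. Its promoter region had 64 and 75 reads in KO against 54 and 57 in WT libraries, which is 15.6 and 22.2 CPM in KO and 17.5 and 19.7 CPM in WT libraries, so the groups overlap (log2 fold change 0.016). Lrfn2, a synaptic adhesion gene, had 85 and 66 promoter reads against 46 and 54 (log2 fold change 0.27). Promoter log2 fold changes of Six3os1, Tshz2, Lama1 and Igsf21 lay between -0.28 and 0.26.

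Of the 8 genes with the largest RNA loss, both KO libraries lay below both WT libraries in the promoter CPM of 4 (Riox2, Lmx1b, Syndig1l and Eps8l1). Over the strongest promoter regions of all genes this holds for 27.9%, so nothing is read from 4 of 8. Lmx1b, a homeodomain factor of the developing midbrain, had RNA of 0.419 TPM in KO and 2.57 TPM in WT, and 30 and 22 promoter reads in KO against 44 and 26 in WT libraries (log2 fold change -0.74, SE 0.42). Syndig1l, a synapse differentiation gene, had 54 and 46 promoter reads against 55 and 65 (-0.58). Eps8l1, an actin regulator, had 34 and 35 against 61 and 41 (-0.87, SE 0.34, adjusted p = 0.857 by edgeR). Bcas1, a marker of young oligodendrocytes, had RNA of 15.0 TPM in KO and 64.9 TPM in WT, and 53 and 17 promoter reads against 47 and 36, which overlap in CPM. Kcnn4, a potassium channel gene, had RNA of 1.08 TPM in KO and 6.46 TPM in WT. Its promoter region had 72 and 81 reads in KO and 50 and 46 in WT libraries. That is 17.6 and 24.0 CPM against 16.2 and 15.9 CPM, and it was not called (log2 fold change 0.36, SE 0.27, adjusted p = 0.933 by edgeR). Odad2, of ciliary dynein arms, and Cnpy1 had promoter values that overlap between the genotypes.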

How the data were processed

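Per the labels, poly(A) RNA-seq (3 Mina53-KO, 3 WT libraries, stranded kit) and CUT&Tag (2 and 2, commercial kit) were made from NSPCs. HISAT2, StringTie and the build GRCm39 are listed in the submitters' processing notes with no versions. The sources used here give no peak caller, counting tool or annotation release. The CUT&Tag table holds the authors' counts per merged region (whole numbers, not scaled), their deposited RPM, from which library totals were derived, and their deposited log2 fold change, p-value and q-value. The authors' peak mark per library and their region annotation are other columns. The RNA table holds deposited expected counts, rounded here for the tests. TPM were computed from expected counts and the table's gene length.

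Both assays were fitted over all features with edgeR 4.0.16 (TMM, filterByExpr with a minimum count of 10, robust glmQLFit, glmQLFTest) in R 4.3.3 for KO over WT, adjusted by Benjamini-Hochberg with calls at 0.05. The SE is the log2 fold change divided by the square root of F. For a gene with several promoter regions the one with most reads was used. DESeq2 1.42.0 and further settings were alternatives. The fits were tested on simulated data.

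Named were the 8 promoter regions of smallest p on either side, the 8 with the highest CPM, the 8 genes with the largest RNA gain and the 8 with the largest loss (called, mean log2 CPM of at least 1, groups not overlapping), the 5 genes with the highest WT TPM, the 5 strongest regions of genes under 0.1 TPM, from each of 29 lists the 2 strongest and the weakest region, Riox2 and Nes. Predicted and mitochondrial symbols were left out of all but the first. The further Fnta regions were chosen after their values were seen. Members, lists and tests were chosen with earlier results of these data known. A check of GC content and motifs against signal was void, since only 66.6% of genes with a promoter region matched a RefSeq window. The list named clustered histones also matched H2az2 and H2ax by symbol.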

Additional observations from a re-analysis of the deposited data

How the results depend on the processing

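CUT&Tag had 2 libraries a genotype, so no exact test over libraries can pass 0.05, and counting error is large at a median of 42 to 54 reads per promoter region. When 1 CUT&Tag library was left out, the lone library was assumed to vary like the other genotype.

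Promoter calls higher in KO numbered 3 by DESeq2 and 0 to 1 with a library left out, and calls lower in KO 3 with the replicate number as a block and 0 to 1 with a library left out. RNA calls among genes with a promoter region were 237 higher and 267 lower by DESeq2, 50 and 51 with the replicate block, 34 to 116 and 31 to 122 with a library left out, and 462 and 451 with the mitochondrial share of each RNA library (over or under 3%) as a covariate, which was added after the data were seen. Without KO replicate 1, KO replicate 2 or WT replicate 3 the RNA calls were 37 and 35, 43 and 36, or 34 and 31, and without WT replicate 2 they were 63 and 81. The median log2 fold change of promoter regions was -0.080 with library totals, -0.133 to -0.078 with a library left out and, by settings added later, -0.200 over regions called in all 4 libraries and -0.030 with all library reads as the scaling. The difference in promoter share was 0.00028 with all library reads as the denominator, and -1.19 to -0.679 with a library left out. The mean rank correlation of promoter level with RNA was 0.254 per region instead of per kb, 0.098 for named symbols, 0.174 with RNA CPM, 0.047 over regions called in all 4 libraries and 0.168 to 0.212 with a library left out. The difference of that correlation, KO minus WT, was -0.113 and stayed between -0.125 and -0.073 under every alternative run. The gap between genes with higher and lower RNA was 0.170 with the replicate block, 0.031 with the mitochondrial covariate, and 0.048 to 0.180 with a library left out (0.051 without KO replicate 1 of CUT&Tag, 0.176 without KO replicate 1 of RNA-seq).

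Same-numbered libraries did not all deviate together. Over the CUT&Tag regions the correlation of their deviations was 0.016, and over RNA it was 0.609, -0.518 and 0.312 for the 3 numbers. No pairing by number was seen, and with so few libraries these values cannot exclude it. Under the block, Aldoa and Sfxn5 had an adjusted p of 0.0498 by edgeR. Of 411 further values for single named regions and genes under these alternatives, 399 kept their direction and side of the threshold, 9 missed the threshold and 3 passed it, and none changed direction.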
